A study of Arabidopsis thaliana with 9 samples.

Results

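The chloroplast genome of Arabidopsis thaliana gives 88 of the 24640 genes listed over the 9 libraries. They were taken by their identifier, which starts with ATCG for genes of the chloroplast. No measured value enters this rule, but earlier results of these data were known when the members were chosen. All 88 were listed in every library and passed the filter on low counts, so none was left out of the tests. Messenger RNA of whole seedlings had been purified with oligo(dT) beads and sequenced in 3 libraries of each of 3 genotypes. These were wild type (WT, ecotype Col-0), the triple mutant bbx202122, in which 3 genes for B-box zinc finger proteins carry mutations, and hy5, a mutant of the bZIP transcription factor HY5. The labels name no alleles and state an ecotype for WT alone. All seedlings were 4 days old and had been stratified for 2 days at 4 °C, given 2 h of white light at 90 µmol per square metre and second, kept dark for 22 h and grown for 3 days at 22 °C in red light at 80 µmol per square metre and second.

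The chloroplast genome encodes subunits of the photosystems, the cytochrome b6f complex, the ATP synthase, the NADH dehydrogenase-like complex (NDH), the plastid ribosome and the plastid RNA polymerase, while the other subunits of these complexes come from the nucleus. Its genes are transcribed by the plastid-encoded polymerase, which needs nuclear sigma factors, and by phage-type polymerases from the nucleus, and neighbouring genes are often transcribed together. Mature chloroplast messengers mostly end in a stem-loop without a tail, and short tails rich in A mark chloroplast RNA for decay. A library selected for poly(A) therefore holds a fraction of these RNAs, and the values below are levels in that fraction.

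Library totals were 21577036 to 22778710 expected counts. Levels of the mutated genes, in counts per 1000000 counts (CPM), check the labels. BBX22 was at 28.9 ± 0.37 in WT and at 2.70 ± 0.27 in bbx202122 (SD, n = 3 each), and BBX21 at 100.5 ± 8.7 and 25.7 ± 1.1, both called lower. BBX20 had 4.57 ± 0.37 in WT and 4.10 ± 0.29 in the triple mutant, so that its transcript level does not show the mutation. HY5 was called lower in both mutants, with 16.8 ± 1.5 in WT, 8.23 ± 1.5 in hy5 and 6.34 ± 0.47 in bbx202122. Its fall from WT therefore does not tell hy5 from bbx202122. Set directly against hy5, bbx202122 had 1 of these 4 genes called higher and 3 lower. All 6 markers of green tissue (antenna genes) were present in every library, and their summed level per 1000000 unscaled counts was 20767 to 22926 in WT, 20773 to 22414 in bbx202122 and 22200 to 22519 in hy5. Singly, 3 of the 6 were called lower and 0 higher in bbx202122 against WT, and 3 lower and 1 higher in hy5 against WT. The 14 root markers, none at 0 in any library, summed to 465 to 499 in WT, 345 to 391 in bbx202122 and 314 to 352 in hy5. The 8 markers of ungerminated seed, 3 of them at 0 in some libraries, summed to 14.3 to 56.4, 10.2 to 21.9 and 49.5 to 78.8. The part of these differences in tissue markers in the results below was not tested, and in whole seedlings a change in the number of cells of a type and a change in RNA per cell cannot be told apart. A pair of libraries stood apart among the chloroplast transcripts, hy5 replicate 1 and bbx202122 replicate 2, and the values without them are given beside the main counts, the class medians that change their order or sign and the largest differences.

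Levels per length, as deposited FPKM (fragments scaled by gene length and library size), were compared in WT first. The highest was rbcL, the large subunit of Rubisco, at 180, 191 and 196 FPKM, and the 3 libraries lay close together. Next came a block of ATP synthase genes, with atpH (ring subunit) at 122.9 ± 17, atpF (stalk subunit) at 114 ± 6.6 and atpA (alpha subunit) at 103 ± 6.8 FPKM, neighbours that do not differ beyond their spread. They were followed by psaB (core of photosystem I, 86.9 ± 11), atpB (beta subunit, 76.1 ± 5.3) and psbC (inner antenna of photosystem II, 71.2 ± 4.4). psbA, whose D1 protein is the most rapidly renewed subunit of photosystem II, stood in the tenth place at 61.4 ± 1.3 FPKM. Class medians in WT were 89.8 FPKM for the 6 ATP synthase genes, 56.0 for 5 photosystem I genes, 52.9 for 15 photosystem II genes, 31.9 for 6 cytochrome b6f genes, 23.16 for 12 NDH rows, 23.22 for 26 ribosomal protein rows and 9.18 for the 4 RNA polymerase genes. The lowest member was rps16, a small ribosomal subunit gene, at 2.40 ± 1.2 FPKM, and 73 of the 88 members were above 10 FPKM. FPKM of the 14 members shorter than 150 bases is uncertain, and 88 counts over all 9 libraries, for petN, were the fewest of any member.

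The genes differ in how many bases A they hold and in their longest run of A, the letter that oligo(dT) pairs with. The coding stretches of 60 bases around the longest run are shown for 8 genes named in the results. They are printed 5′ to 3′ on the coding strand with the run in capitals (RefSeq, assembly TAIR10.1, chloroplast chromosome). The first 4 hold runs of 13 or 14, and the last 2 belong to the pair of transcripts with the smallest differences between bbx202122 and WT. rpl14, which had the largest difference over the 9 libraries and is not shown, has a longest run of 4, like psbA.
rpoA: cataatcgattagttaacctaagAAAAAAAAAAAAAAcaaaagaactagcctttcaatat
rpoC2: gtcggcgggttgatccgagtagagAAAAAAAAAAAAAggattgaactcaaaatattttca
accD: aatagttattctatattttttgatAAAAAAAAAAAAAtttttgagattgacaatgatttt
ycf1.2: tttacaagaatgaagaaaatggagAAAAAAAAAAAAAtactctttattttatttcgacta
atpB: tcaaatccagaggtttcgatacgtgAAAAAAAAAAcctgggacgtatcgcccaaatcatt
rps3: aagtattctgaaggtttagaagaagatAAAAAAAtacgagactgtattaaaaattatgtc
rbcL: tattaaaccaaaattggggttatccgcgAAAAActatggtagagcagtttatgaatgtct
psbA: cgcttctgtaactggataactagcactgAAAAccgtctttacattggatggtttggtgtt
These stretches lie on the minus strand at 78072-78131 (rpoA), 17903-17962 (rpoC2), 125845-125904 (ycf1.2), 54076-54135 (atpB), 83342-83401 (rps3) and 1340-1399 (psbA). Those of accD (57348-57407) and rbcL (55476-55535) lie on the plus strand. All 8 are inside coding sequence. Over the whole coding sequence, A made up 37.2% of rpoA, 40.2% of ycf1.2 and 39.7% of rps3, against 28.1% of rbcL and 23.4% of psbA. rpoC2 and accD, with 32.7% each, and atpB, with 30.2%, lay between.

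The 88 genes together gave a larger share of the counts in bbx202122 than in either other genotype. Their share was 0.210, 0.229 and 0.238% of all counts in WT replicates 1 to 3, 0.493, 0.406 and 0.399% in bbx202122, and 0.326, 0.191 and 0.230% in hy5. Every bbx202122 library lay above every other library, and the hy5 libraries lay on both sides of WT. The mean share in bbx202122 was 1.92 times that of WT and 1.74 times that of hy5, with p = 0.1 for each in an exact two-sided permutation test, the smallest that 3 against 3 libraries can give (0.2 after Benjamini-Hochberg adjustment over 6 tests of organelle shares). hy5 stood at 1.103 times WT (exact permutation p = 0.8, adjusted 0.8), and without hy5 replicate 1 its mean share was 0.210%.

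**Figure D1:**
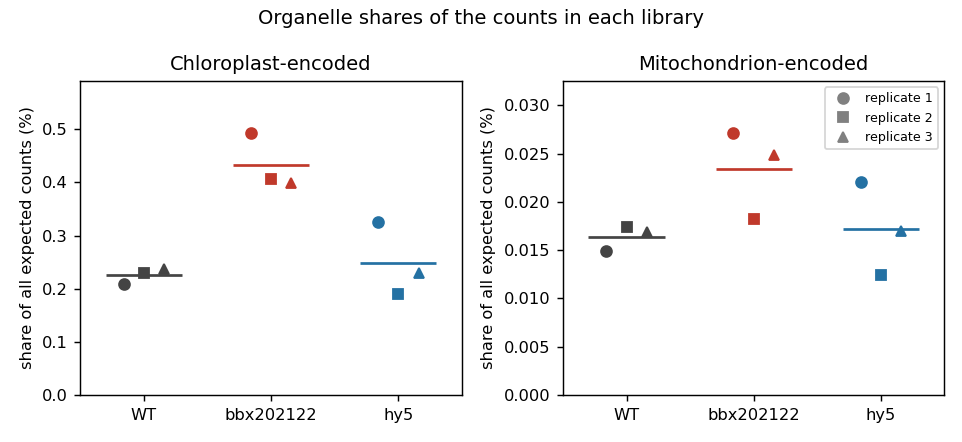
Share of all expected counts (%) that fell to chloroplast-encoded genes (left) and mitochondrion-encoded genes (right), 1 point per library with replicates marked by shape and a line at the mean of 3. The bbx202122 libraries lie at 0.399 to 0.493% on the left, above all WT and hy5 libraries, and hy5 replicate 1 lies above the other hy5 libraries in both panels.

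RNA of the other organelle and an RNA without a tail were read beside this result. Mitochondrial counts made up 0.0149 to 0.0174% in WT, 0.0182 to 0.0271% in bbx202122 and 0.0124 to 0.0221% in hy5. Their mean in bbx202122 was 1.43 times that of WT (exact permutation p = 0.1, adjusted 0.2), and of 41 tested mitochondrial genes 6 were called higher and 0 lower there. Over all genes 8.62% were called higher and 8.27% lower in this comparison, and DESeq2 called 3 of the 41 higher. The ratio of chloroplast to mitochondrial counts was 13.2 to 14.1 in WT, 13.5 to 15.4 in hy5 and 16.1 to 22.2 in bbx202122. The RNA of the signal recognition particle, 7SL (AT4G02970), which is made by RNA polymerase III and is not known to be polyadenylated, measured 7.595 ± 2.1 CPM in the WT libraries, 11.6 ± 0.11 in those of bbx202122 and 5.55 ± 0.72 in those of hy5. It was called higher in bbx202122 than in WT (log2 fold change 0.61 ± 0.15 SE, edgeR adjusted p = 0.0107) and lower in hy5 (-0.45 ± 0.16, edgeR adjusted p = 0.0404). 7SL was 1 of 5 RNAs taken as not expected to carry poly(A), nuclear rRNA among them, and the other 4 were listed in no library. Whether the yield of RNA with short or no tails differed between libraries was not tested.

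bbx202122 was set against WT to find transcripts whose level changes when BBX20, BBX21 and BBX22 are lost. Of the 88 chloroplast transcripts 76 rose, 0 fell and 12 were not called, where called means an adjusted p under 0.05 in edgeR's quasi-likelihood F test with Benjamini-Hochberg adjustment over 20751 genes. At an unadjusted p under 0.05, edgeR had 85 members higher and 0 lower, and DESeq2 called 74 higher and 0 lower. Over all genes tested edgeR called 16.9% at the adjusted p, 8.62% higher and 8.27% lower. Shares of all genes at an unadjusted p and by DESeq2 are not given. The median log2 fold change of the members was 1.12, with a range of 0.31 to 1.57, against 0.01 over all genes. For 82 members every bbx202122 library was above every WT library, which held for 16.7% of all genes. Leaving out any 1 of the 9 libraries left 70 to 81 members called, all of them higher.

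Genes of the transcription and translation machinery rose with 2 exceptions. All 4 subunits of the plastid RNA polymerase rose: rpoA (alpha) by 1.26 ± 0.18 (edgeR adjusted p = 0.00018), rpoC2 by 0.97 ± 0.17 (adjusted p = 0.00137), rpoC1 by 0.90 ± 0.16 (adjusted p = 0.00112) and rpoB (beta) by 0.49 ± 0.13 (adjusted p = 0.0146) on the log2 scale. rpoB stood at 8.27, 9.12 and 9.72 FPKM in WT and 15.5, 11.6 and 11.5 FPKM in bbx202122, without overlap. Its call was lost without bbx202122 replicate 1 (0.34, adjusted p = 0.0602) or WT replicate 1 (0.43, adjusted p = 0.0698). rpoA lies apart from the other 3, at the end of the large group of ribosomal protein genes that starts with rpl23.

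Of 26 rows for ribosomal proteins 24 rose, all 11 of the large subunit (median 1.29) and 13 of 15 of the small subunit (median 1.25). rps3, of the small subunit, stood at 26.0, 27.5 and 30.3 FPKM in WT and at 88.03, 97.2 and 60.05 FPKM in bbx202122. The groups did not overlap and differed by 1.54 ± 0.18 on the log2 scale (edgeR adjusted p = 4.74e-05). The medians without bbx202122 replicate 2 were 1.096 and 1.14, against 1.12 for the NDH rows, so that the large subunit stood highest of the classes with that library and not without it. rpl14, of the large subunit, had the largest difference of all members over the 9 libraries. It was at 28.3, 31.7 and 25.3 FPKM in WT and at 89.2, 111 and 54.9 FPKM in bbx202122, a fold of 2.97 (log2 fold change 1.57 ± 0.21, edgeR adjusted p = 0.000139). Its difference was 1.31 (adjusted p = 0.000467) without bbx202122 replicate 2, below those of petL (1.46), rps3 and rpl20 (1.37 each), ycf3 (1.36), psaC (1.34) and ycf4 (1.32). The smallest difference of the large subunit was that of rpl32, at 1.01 ± 0.18 (adjusted p = 0.0011). Not called were rps16 (1.17 ± 0.42, adjusted p = 0.0682) and rps14 (0.58 ± 0.21, adjusted p = 0.072), the latter being co-transcribed with a pair of photosystem I genes.

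All 6 ATP synthase genes rose (median 1.08), from atpB at 0.99 ± 0.14 (edgeR adjusted p = 0.000208) to atpF at 1.18 ± 0.16 (adjusted p = 0.000152). atpH, the most abundant of them, rose by 1.11 ± 0.16 (adjusted p = 0.000267). atpA stood at 96.7, 103 and 110 FPKM in WT and at 262, 239 and 209 FPKM in bbx202122, a clear gap between the groups. The NDH complex, which passes electrons from ferredoxin back to plastoquinone, had 12 of 12 rows higher (median 1.21). They ran from 0.81 ± 0.16 for ndhB (adjusted p = 0.0024) to 1.29 ± 0.17 for ndhH (adjusted p = 0.000131), and ndhE, the most abundant, was at 1.102 ± 0.16 (adjusted p = 0.00019). Of 6 cytochrome b6f genes 5 rose (median 1.15). petB (cytochrome b6) rose by 0.87 ± 0.14 (adjusted p = 0.000771) and petD (subunit IV) by 0.77 ± 0.17 (adjusted p = 0.00486). petL rose by 1.40 ± 0.36 (adjusted p = 0.0142), a call lost without WT replicate 2 (1.14, adjusted p = 0.0694) or bbx202122 replicate 1 (1.16, adjusted p = 0.0569). petN was not called (1.19 ± 0.45, adjusted p = 0.0875).

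The photosystem genes had 14 of 20 members higher. In photosystem II 11 of 15 rose (median 0.91), with psbC at 0.91 ± 0.14 (edgeR adjusted p = 0.000339), psbD (D2 protein) at 1.02 ± 0.13 (adjusted p = 0.000105) and psbI, a small subunit, at 1.07 ± 0.19 (adjusted p = 0.00145). psbB, an inner antenna, rose by 0.67 ± 0.19 (adjusted p = 0.0246), but its call was lost with DESeq2 (adjusted p = 0.11) and without any 1 of WT replicate 1, WT replicate 2, bbx202122 replicate 1 and bbx202122 replicate 3 (adjusted p = 0.0541 to 0.0898). In photosystem I 3 of 5 rose (median 0.69). psaC, which carries iron-sulfur clusters, rose by 1.36 ± 0.16 (adjusted p = 4.49e-05), from 29.9, 33.7 and 25.6 FPKM in WT to 76.0, 77.2 and 77.7 FPKM in bbx202122. It is co-transcribed with NDH genes, not with psaA and psaB.

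The members that were not called include the genes for the best-known chloroplast proteins. rbcL had the smallest difference of the 88, at 0.31 ± 0.19 (edgeR adjusted p = 0.303), and psbA the next, at 0.34 ± 0.16 (adjusted p = 0.18). rbcL was at 282, 161 and 267 FPKM in bbx202122, so that replicate 2 lay below all 3 WT libraries and the others above. psbA was at 61.0, 60.4 and 62.9 FPKM in WT and at 104, 57.3 and 74.8 FPKM in bbx202122, again with replicate 2 below WT. psaA and psaB, the core pair of photosystem I, were at 0.54 ± 0.21 (adjusted p = 0.0942) and 0.56 ± 0.21 (adjusted p = 0.0849). psaB stood at 74.8, 88.7 and 97.2 FPKM in WT and at 161, 86.6 and 143 FPKM in bbx202122. Without bbx202122 replicate 2 psbA (0.50, adjusted p = 0.0343), psaA (0.75, adjusted p = 0.0164), psaB (0.77, adjusted p = 0.0162), rps14 (0.76, adjusted p = 0.0177) and psbT (0.88, adjusted p = 0.04999) were called higher. rbcL then stood at 0.50 (adjusted p = 0.0544). A hy5 library enters this comparison only through the estimate of the spread, the scaling and the filter. Leaving out such a library also brought psaB (adjusted p = 0.0413 without hy5 replicate 2), rps14 (0.0404 without hy5 replicate 2) and psbT (0.031 without hy5 replicate 1) past the threshold, so that these calls lie near it. rps16 was called without bbx202122 replicate 3 (1.38, adjusted p = 0.0419).

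The remaining members without a call were short or had few counts. psbM (0.67 ± 0.40, edgeR adjusted p = 0.298), psbT (0.72 ± 0.27, adjusted p = 0.081) and psbN (0.72 ± 0.28, adjusted p = 0.101) are under 150 bases long. psbN lies on the strand opposite to its neighbours psbT and psbH, and since nothing states that the counting used strand, reads of the 3 may not be told apart. The repeat pair ATCG00870 and ATCG01270, without an entry in the annotation used here, was at 0.76 ± 0.29 (adjusted p = 0.0876).

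Of 13 other protein genes 11 rose, with a median of 1.15. ycf1.2, which encodes a component of the protein import channel, rose most, by 1.47 ± 0.21 (edgeR adjusted p = 0.000184). Its levels were 7.42, 6.84 and 7.53 FPKM in WT and 21.5, 25.1 and 14.4 FPKM in bbx202122, well apart. matK, a maturase for introns and the most abundant member of this class, rose from 32.4 ± 1.4 to 79.4 ± 10 FPKM (1.28 ± 0.16, adjusted p = 9.14e-05). accD (a subunit of the acetyl-CoA carboxylase, 1.35), ycf3 and ycf4 (assembly of photosystem I, 1.37 and 1.36), ccsA (attachment of haem to cytochromes, 1.38), clpP1 (a protease subunit, 1.15) and cemA (1.07) rose also, and both copies of ycf2 rose least, by 0.76 ± 0.17 (adjusted p = 0.00667).

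**Figure D2:**
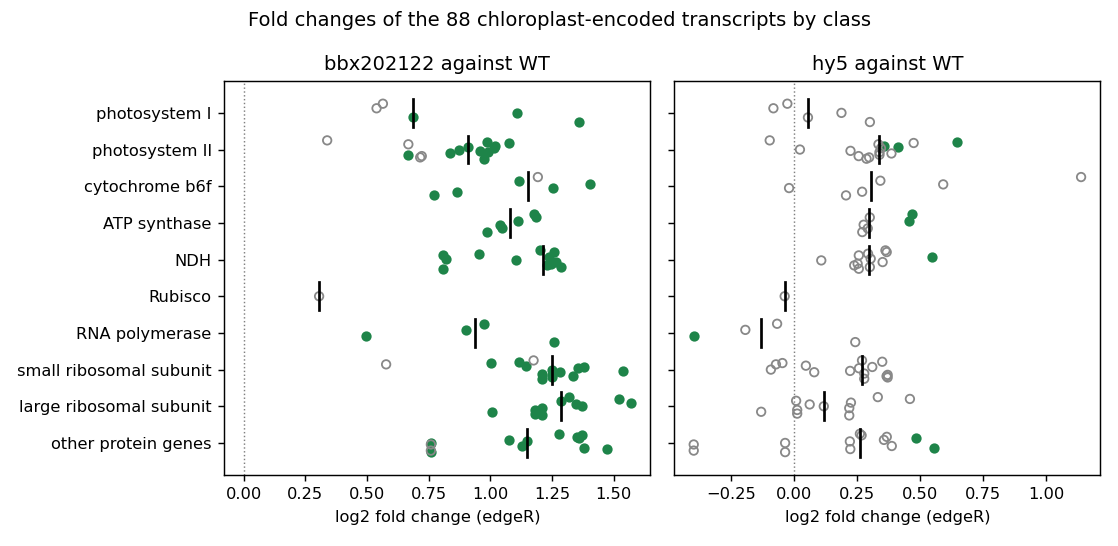
Log2 fold changes (edgeR) of the 88 chloroplast-encoded transcripts by class, with 1 point per transcript, filled where called (adjusted p under 0.05) and open where not, and a bar at the class median. Against WT, the bbx202122 medians run from 0.31 (Rubisco, 1 gene) to 1.29 (large ribosomal subunit), and the hy5 medians from -0.13 (RNA polymerase) to 0.34 (photosystem II). With bbx202122 replicate 2 left out the bbx202122 values were 0.50 for Rubisco and 1.096 for the large ribosomal subunit, and without hy5 replicate 1 the hy5 values were -0.40 for RNA polymerase and -0.04 for photosystem II.

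Because the classes moved by unequal amounts, their shares within the chloroplast counts differed between genotypes. Ribosomal protein genes held 9.76 ± 0.21% of the chloroplast counts in WT (9.62 to 10.003%), 12.3 ± 2.4% in bbx202122 (10.3 to 15.06%) and 9.57 ± 0.71% in hy5 (9.01 to 10.4%). rbcL held 11.8 to 12.4% in WT, 5.71 to 9.62% in bbx202122 and 9.07 to 12.6% in hy5, and in bbx202122 every library was below WT. Both photosystems together held 30.0 to 32.0% in WT and 22.4 to 28.9% in bbx202122, again without overlap. The 4 RNA polymerase genes held 4.33 ± 0.30% in WT, 4.29 ± 0.41% in bbx202122 and 3.54 ± 0.092% in hy5. For the shares of ribosomal protein genes, rbcL and both photosystems in bbx202122 against WT, the exact permutation p was 0.1, the smallest possible. Over all 84 such tests of classes, co-transcribed groups and single genes no adjusted p went below 0.24, so this design cannot place any of them past a threshold.

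**Figure D3:**
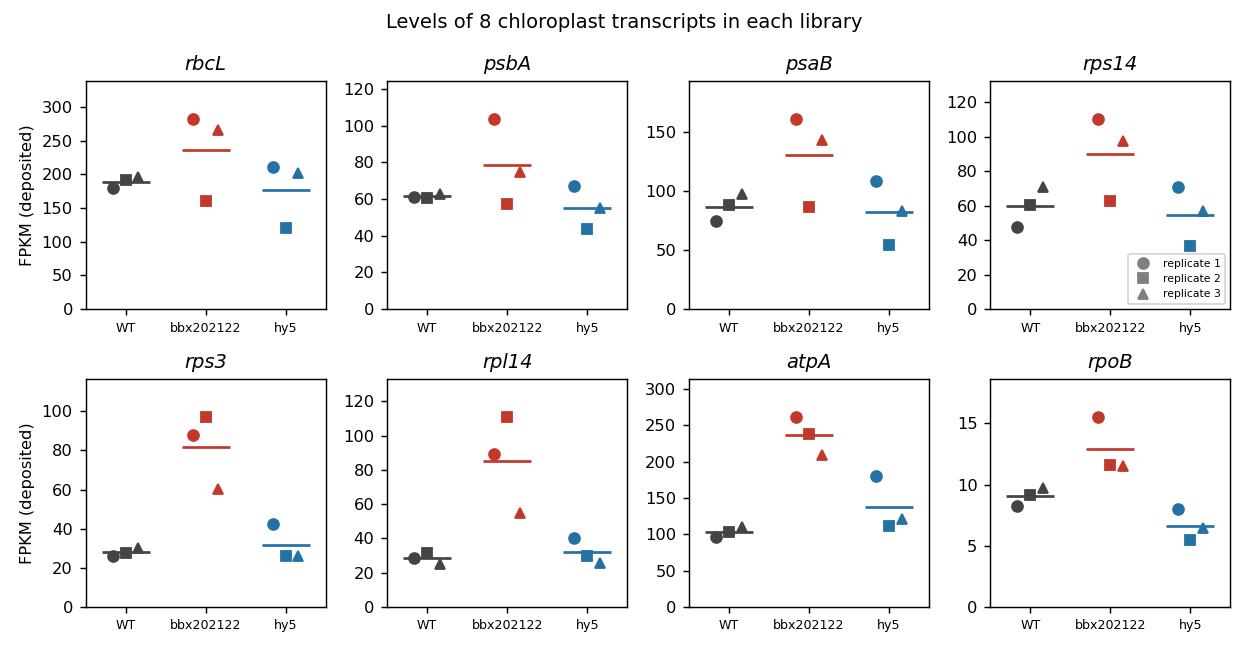
Levels of 8 chloroplast transcripts as deposited FPKM, 1 point per library with replicates marked by shape and a line at the mean of 3. rbcL, psbA, psaB and rps14 overlap between bbx202122 and WT, with replicate 2 low, while rps3, rpl14, atpA and rpoB do not overlap, and rps3 and rpl14 are highest in replicate 2.

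In some co-transcribed groups the genes stood close together relative to WT in each library, and in others they stood apart. The groups were taken from textbook knowledge of chloroplast operons, and their levels are given as the median log2 level of their genes relative to the WT mean. The 11 genes of the rpl23 group (rpl23 to rpoA) were at 1.39, 1.67 and 0.83 in bbx202122 replicates 1 to 3, and replicate 2 was the highest for 10 of them. The 3 genes of the psaA group (psaA, psaB and rps14) were at 0.86, 0.01 and 0.67, with replicate 2 lowest for all 3. All 5 genes of the psbB group (psbB, psbT, psbH, petB and petD), at 1.06, 0.40 and 0.94, were also lowest there. bbx202122 replicate 2 was thus high for 1 set of genes and near WT for another, and it had the lowest mitochondrial share of its genotype. rps14, a ribosomal protein gene, stood at 0.86, 0.08 and 0.67, close to its photosystem I neighbours. psaC was at 1.34, 1.39 and 1.35, near the median of its group with the NDH genes (1.34, 1.38 and 0.95) in replicates 1 and 2 but above it in replicate 3. In the rpoB group rpoB, at 0.76, 0.37 and 0.32, was below rpoC2, at 1.19, 0.998 and 0.70, in every bbx202122 library. In the petL-rps18 group psaJ (0.89, 0.73 and 0.40) was below petL (1.82, 1.27 and 1.05) in the same way. In the psaI-petA group psaI was at 0.88, -0.27 and -0.42 in hy5 replicates 1 to 3 and ycf4 at 0.88, 0.21 and 0.26. psaI, a gene of 114 bases, ran from -0.34 to 0.37 within WT. In the psbD-psbC group, which includes psbZ, the levels were 1.08, 0.90 and 0.91, and in the rps2-atpA group 1.25, 1.08 and 0.98.

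**Figure D4:**
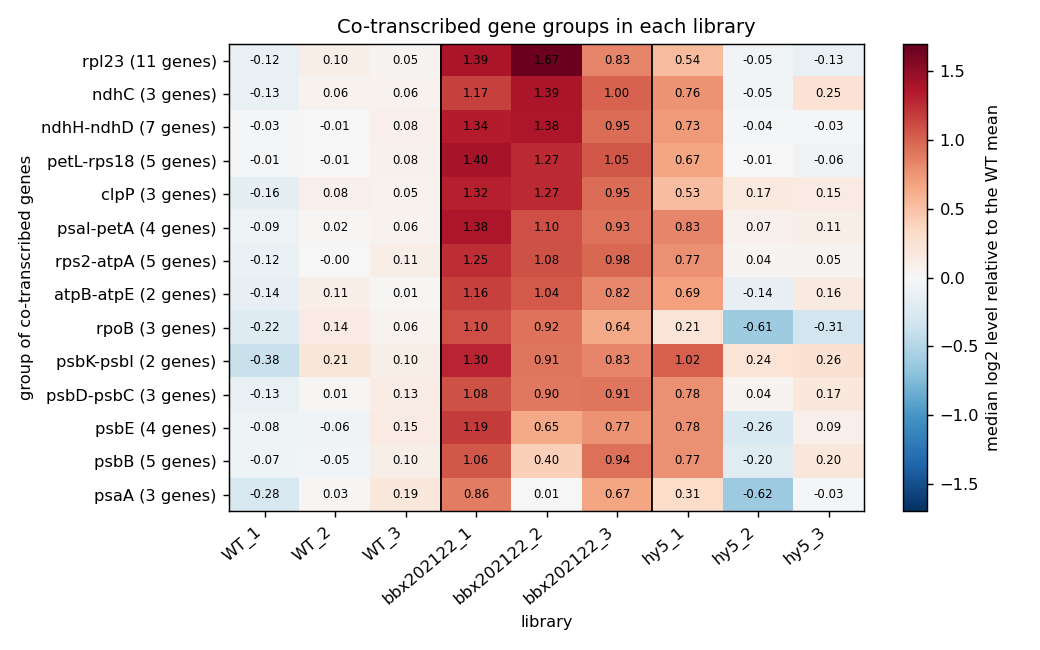
Median log2 level of the genes in each co-transcribed group relative to the WT mean (colour and printed value), with groups in rows and the 9 libraries in columns. The rpl23 group reaches 1.67 and the psaA group 0.01 in bbx202122 replicate 2, and hy5 replicate 1 is above the other hy5 libraries in every group.

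hy5 was set against the same 3 WT libraries to find transcripts that change when HY5 is lost. Of 88 members 8 rose, 1 fell and 79 were not called, with a median of 0.27. Over all genes 39.5% were called in this comparison, 19.6% higher and 19.8% lower, or 15.0% higher and 24.4% lower when libraries are scaled by their totals alone. In 5 members every hy5 library was above every WT library, against 25.7% of all genes. Each of the 88 members was higher in hy5 replicate 1 than in hy5 replicates 2 and 3, and the median relative log2 level over members was 0.69 in replicate 1, -0.08 in replicate 2 and 0.03 in replicate 3. When hy5 replicate 1 was left out, 0 members rose, 2 fell and the median was -0.01. When hy5 replicate 2 was left out, 26 rose, 0 fell and the median was 0.39. Without WT replicate 1, 2 or 3 the calls numbered 1, 3 and 5. The number of calls in hy5 therefore depends on single libraries, those of WT included.

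The member that fell in hy5 was rpoB. It stood at 8.27, 9.12 and 9.72 FPKM in WT and at 7.96, 5.46 and 6.41 FPKM in hy5, all 3 below the WT libraries in FPKM, although the scaled CPM overlapped. The log2 fold change was -0.40 ± 0.13 (edgeR adjusted p = 0.0274), and it was not called without WT replicate 2, WT replicate 3, hy5 replicate 2 or hy5 replicate 3 (-0.40 to -0.28, adjusted p = 0.0612 to 0.14). rpoC1, which is co-transcribed with it, stood at 8.09, 10.3 and 9.62 FPKM in WT and at 10.4, 5.90 and 7.30 FPKM in hy5, groups that overlap (-0.19 ± 0.17, adjusted p = 0.384). Without hy5 replicate 1 both rpoB (-0.56) and rpoC1 (-0.45) were called lower. rpoC2 was at -0.07 ± 0.18 (adjusted p = 0.794) and rpoA, of the rpl23 group, at 0.24 ± 0.18 (adjusted p = 0.321). The rpoB group held 3.12 to 3.57% of the chloroplast counts in WT and 2.47 to 2.53% in hy5, below WT in every library, hy5 replicate 1 included (exact permutation p = 0.1, adjusted 0.24).

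The 8 members that rose in hy5 were in photosynthesis and assembly. They were psbK (0.64 ± 0.23), psbC (0.41 ± 0.14) and psbD (0.36 ± 0.13) of photosystem II, atpA (0.47 ± 0.14) and atpH (0.45 ± 0.17) of the ATP synthase, ndhF of NDH (0.54 ± 0.20), ccsA (0.55 ± 0.21) and ycf4 (0.48 ± 0.15). Their edgeR adjusted p values lay between 0.0153 (ycf4) and 0.047 (psbD). psbC stood at 66.5, 72.1 and 75.2 FPKM in WT and at 117, 71.1 and 85.8 FPKM in hy5, and atpA at 181, 112 and 120 FPKM in hy5, above all 3 WT libraries. Without hy5 replicate 1 none of the 8 was called (0.11 to 0.24, adjusted p = 0.0836 to 0.337), and without WT replicate 1 none of them was either. The psbD-psbC group held 7.33 to 7.48% of the chloroplast counts in WT, 7.23 to 8.01% in bbx202122 and 8.41 to 8.70% in hy5 (hy5 against WT exact permutation p = 0.1, adjusted 0.24). rbcL was at 210, 120 and 202 FPKM in hy5 (-0.04 ± 0.19, adjusted p = 0.889).

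Set directly against hy5, bbx202122 had 74 members higher, 0 lower and 14 not called in edgeR, with a median of 0.88. At an unadjusted p under 0.05 the numbers were 81 and 0, and DESeq2 called 62 higher and 0 lower. Over all genes edgeR called 23% at the adjusted p, 12.1% higher and 10.9% lower, or 18.1% and 6.88% when scaled by library totals alone. For an unadjusted p and DESeq2 the shares of all genes are not given. In 60 members every bbx202122 library was above every hy5 library, against 20.3% of all genes. Without hy5 replicate 1 the calls numbered 83 and the median was 1.12, and without hy5 replicate 2 they numbered 56 with a median of 0.71. Of the 88 members 70 were called higher in bbx202122 than in both other genotypes, a pair of comparisons that share the bbx202122 libraries.

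Ribosomal protein and RNA polymerase genes had the highest class medians in this comparison, and photosystem II and rbcL the lowest. Among the largest differences were those of rpl14 (1.35 ± 0.21, edgeR adjusted p = 0.000336), rps3 (1.32 ± 0.18, adjusted p = 0.000119), rpl16 (1.29 ± 0.18, adjusted p = 0.000166) and rpl36 (1.28 ± 0.26, adjusted p = 0.00244), all of the rpl23 group. rpl16 stood at 127, 151 and 86.4 FPKM in bbx202122 and at 62.4, 39.7 and 40.6 FPKM in hy5, without overlap. These 4 differences, without bbx202122 replicate 2, were 1.09, 1.15, 1.08 and 1.08, still called. Of 26 ribosomal rows 25 were higher (median 1.07), as were all 4 RNA polymerase genes (median 1.03), with rpoC1 at 1.09 ± 0.16 and rpoB at 0.89 ± 0.13. All 12 NDH rows (median 0.87) and 6 ATP synthase genes (median 0.74) were higher too. In photosystem II 6 of 15 were called (median 0.50). The calls in photosystem II and NDH depended on single hy5 libraries. Photosystem II had 13 called without hy5 replicate 1 (median 0.81) and 1 without hy5 replicate 2 (median 0.34). NDH had 12 and 7 rows called in these settings, and the ribosomal rows 25 and 22. All 6 ATP synthase and all 4 RNA polymerase genes stayed called in both. Without bbx202122 replicate 2 the ribosomal median was 0.95, below those of RNA polymerase (0.99) and of the other protein genes (0.96), and that of photosystem II was 0.62. The 5 smallest differences were in petN (0.05 ± 0.39, adjusted p = 0.94), psbB (0.33 ± 0.19, adjusted p = 0.228), psbM (0.33 ± 0.39, adjusted p = 0.582), psbK (0.34 ± 0.21, adjusted p = 0.28) and rbcL (0.34 ± 0.19, adjusted p = 0.207). Of these, psbB (0.61, adjusted p = 0.0181) and psbK (0.74, adjusted p = 0.00517) were called without hy5 replicate 1, and rbcL (0.55, adjusted p = 0.0273) without bbx202122 replicate 2.

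Across genes, the differences between bbx202122 and the other genotypes tended to be larger where the coding sequence holds more A. The percentage of A had a median of 35.3 in ribosomal protein rows, 32.5 in RNA polymerase genes, 30.6 in ATP synthase genes, 28.9 in NDH rows, 28.1 in rbcL, 26.7 in photosystem I, 25.7 in cytochrome b6f and 25 in photosystem II genes. Cytochrome b6f genes went the other way, with little A and a median difference from WT of 1.15, above RNA polymerase (0.94) and ATP synthase genes (1.08). Over 78 genes, with the longest of repeat copies standing for them, Spearman's rho between the percentage of A and the log2 fold change was 0.52 for bbx202122 against WT, 0.73 for bbx202122 against hy5 and -0.29 for hy5 against WT. Within 21 ribosomal protein genes rho was 0.38, 0.38 and -0.03, and within 57 other genes 0.35, 0.60 and -0.22. Without bbx202122 replicate 2 rho was 0.37 for bbx202122 against WT (0.19 within ribosomal protein genes) and 0.65 against hy5. Without hy5 replicate 1 it was 0.68 for bbx202122 against hy5 and -0.23 for hy5 against WT. The longest run of A, marked in the stretches printed above, gave 0.15, 0.28 and -0.16. rpoC2 and accD have a run of 13 each and differed from WT by 0.97 and 1.35, and rps3 with a run of 7 differed by 1.54. The WT level gave rho of -0.31, -0.38 and 0.03 over 79 genes. These are descriptions across genes of the same libraries, genes of a group share transcripts, and base composition follows gene class, so the points are not independent. Members with an intron (16, 15 of them higher in bbx202122 than in WT, median 1.18) and without (72, 61 higher, median 1.11) had similar medians.

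**Figure D5:**
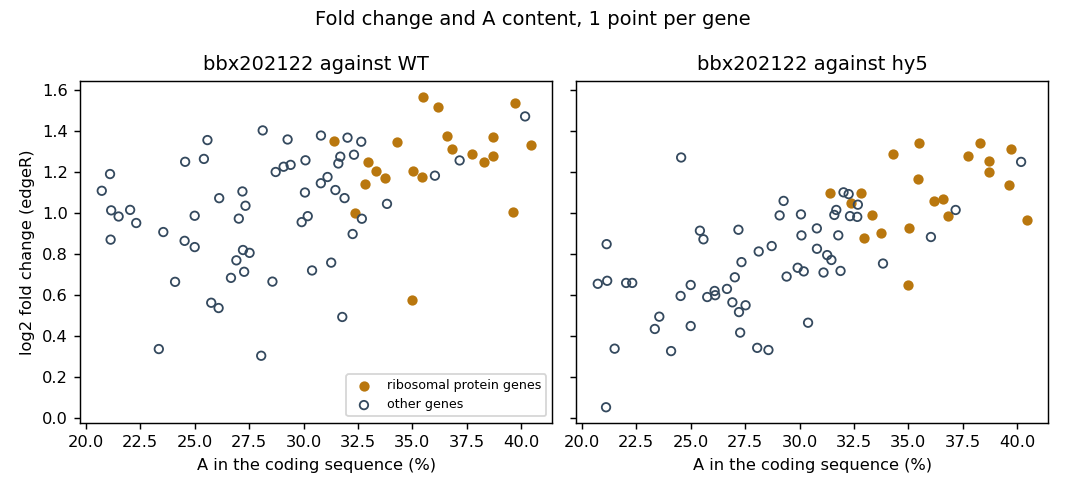
Log2 fold change (edgeR) against the percentage of A in the coding sequence, 1 point per gene with the longest of repeat copies shown, for bbx202122 against WT (left) and against hy5 (right). Ribosomal protein genes (filled) lie between 31.4 and 40.4% A, the other genes (open) between 20.7 and 40.2%, and rho over 78 genes is 0.52 and 0.73.

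Nuclear genes for the same complexes did not rise with the chloroplast genes in bbx202122 against WT. Among nuclear subunits of photosystem I (12), photosystem II (10), cytochrome b6f and ATP synthase (5), NDH (7), the plastid ribosome (28) and the Rubisco small subunit (4), 0 were called higher in bbx202122 than in WT. Called lower were 1, 2, 0, 2, 3 and 4 of them, in that order. At an unadjusted p under 0.05, edgeR had 0 of these 66 genes higher and 26 lower, and DESeq2 called 0 higher and 22 lower. By edgeR's adjusted p 12 of the 66 were lower, against 8.27% of all genes. Shares of all genes at an unadjusted p and by DESeq2 are not given, so the 26 and 22 have no background here. List medians lay between -0.37 (Rubisco) and -0.09, against a median of 0.01 over all genes. RBCS3B fell by 0.40 on the log2 scale (-0.40 ± 0.07, edgeR adjusted p = 0.00136), while rbcL, whose product joins it in Rubisco, was at 0.31 ± 0.19. PSBO2 (-0.31 ± 0.06, adjusted p = 0.00286), of the oxygen-evolving complex, and PnsB2 (-0.28 ± 0.05, adjusted p = 0.00229), of the NDH complex, were lower.

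Nuclear genes for chloroplast transcription and RNA handling also had no member called higher in bbx202122 than in WT by edgeR or DESeq2, and 1 of 40 was higher at an unadjusted p under 0.05. By edgeR's adjusted p 6 of the 40 were lower, against 8.27% of all genes. Of 8 sigma factor and phage-type polymerase genes SIG5 (-0.70 ± 0.07, edgeR adjusted p = 1.97e-05) and SIG1 (-0.21 ± 0.06, adjusted p = 0.0273) fell. Of 14 genes for polymerase-associated proteins 1 fell, FLN2 (-0.29 ± 0.06, adjusted p = 0.00285). Of 18 genes for RNA processing, binding and decay 3 fell, CSP41B (-0.32 ± 0.07, adjusted p = 0.00473), CSP41A (-0.26 ± 0.07, adjusted p = 0.0214), a pair of RNA-binding proteins, and HCF107 (-0.21 ± 0.07, adjusted p = 0.0488), which acts on the psbH messenger.

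In hy5 against WT the same lists shared some falls with bbx202122 and differed in others, beside a background of 19.8% of genes lower. FLN2, SIG1 and 3 of the 4 Rubisco small subunit genes fell in both mutants. Of 14 polymerase-associated genes 11 fell (median -0.27), among them FLN2 (-0.57 ± 0.06, edgeR adjusted p = 1.99e-06), FLN1 (-0.53 ± 0.07, adjusted p = 3.7e-05) and PRIN2 (-0.43 ± 0.08, adjusted p = 0.000725). Of 28 nuclear plastid ribosomal protein genes 20 fell (median -0.25), for example RPL27 (-0.35 ± 0.05, adjusted p = 0.000118), whereas the 26 chloroplast-encoded ribosomal rows had 0 called by edgeR and a median of 0.22, which was -0.07 without hy5 replicate 1. Of these rows 2 were higher at an unadjusted p under 0.05, and DESeq2 called 1. Of the 8 polymerase and sigma factor genes SIG3 (0.33 ± 0.05, adjusted p = 0.000202) and SIG4 (0.37 ± 0.07, adjusted p = 0.000342) rose, and SIG1 (-0.20 ± 0.06, adjusted p = 0.0129) and the phage-type polymerase gene SCA3 (AT2G24120; -0.23 ± 0.07, adjusted p = 0.0158) fell. Called in the other lists were 1 higher and 5 lower of 18 RNA processing genes, 3 lower in photosystem I, 1 lower in photosystem II, 1 higher in cytochrome b6f and ATP synthase, 0 in NDH (1 higher and 1 lower at an unadjusted p under 0.05 and 0 by DESeq2) and 3 lower of the 4 Rubisco genes. For bbx202122 against hy5, edgeR called 9 of 28 nuclear plastid ribosomal protein genes and 7 of 14 polymerase-associated genes higher, and 0 lower. Over all genes 12.1% were higher and 10.9% lower. Of 8 polymerase and sigma factor genes 3 were lower there, and of 7 NDH genes 4, with 0 higher in either. Photosystem II and the cytochrome b6f and ATP synthase list had 1 lower each, and RNA processing 2 higher and 2 lower.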

How the data were processed

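Per the labels, poly(A) RNA of whole seedlings was made into 9 libraries, 3 per genotype, by a BGISEQ-500 protocol. Per the submitters' processing notes, the tools were Bowtie2 2.2.5, RSEM 1.2.12 and HISAT, whose version is not stated there, on build TAIR10, and their roles are not given. The deposited expected counts are unscaled estimates per gene. The deposited FPKM values were normalised by the authors to gene length and library size, and genes under 0.01 FPKM are not listed. For chloroplast genes the deposited lengths equalled coding lengths in RefSeq TAIR10.1 for 78 of 88 rows, which gave the gene names together with a hand-written list. Another 8 rows matched a part or another start of the named gene, and 2 had no entry.

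After rounding, all 9 libraries entered a single edgeR 4.0.16 model (R 4.3.3) with a mean for each genotype, using TMM and filterByExpr (20751 genes, 6 residual degrees of freedom, common dispersion 0.00407). The quasi-likelihood F test was two-sided, with Benjamini-Hochberg adjustment over all genes and a call at 0.05. Each SE was taken as the absolute log2 fold change over the square root of the F statistic. CPM is on TMM-scaled totals except for summed markers and organelle shares. The test was checked on simulated counts, drawn independently for each gene with a common dispersion. They held no shift shared by a set of genes within a library, so the check does not cover members that move together. A depth of 21577036 to 22778710 counts puts 3 counts at 0.127 to 0.143 CPM. Nothing in the labels says that replicates were separate cultures, so the spread behind each p-value is that between these samples and may be technical.

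Copies in the inverted repeat and the rps12 parts (17 rows) share sequence, and 21 members had fractional counts, so copies are not independent. ycf1.1 is counted among these as a partial copy of ycf1.2. Overlapping neighbours (psbD with psbC, atpB with atpE, rps3 with rpl22, ycf1.1 with ndhF) may share reads too. Members, lists and the naming rule were chosen with earlier results of these data known. Named are, per class, the most abundant member of at least 150 bases and the largest and smallest bbx202122 differences, members not called in bbx202122 or called in hy5, the extremes of bbx202122 against hy5, and up to 4 called genes per nuclear list. A result that the rule would name is not reported here. Members named for their sequence, ribosomal group or role beyond that were chosen after their values were seen. Alternatives were library totals alone, TMM from nuclear genes, DESeq2 1.42.0, no filter, summed repeat copies, a replicate block and leaving out each library.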

Additional observations from a re-analysis of the deposited data

How the results depend on the processing

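For bbx202122 against WT the called members numbered 74 with DESeq2, 77 without a filter, 76 with TMM from nuclear genes or library totals alone, and 69 of 79 with repeat copies summed. The median was 1.03 to 1.23 over 9 left-out libraries, and the log2 ratio of the chloroplast shares 0.84 to 0.99. bbx202122 against hy5 gave 62 calls with DESeq2, 77 without a filter, 65 of 79 with copies summed, and 56 to 83 over left-out libraries, all higher. The calls of hy5 against WT numbered 5 with library totals alone and 5 with DESeq2 (4 higher and 1 lower in each), and 1 to 26 over left-out libraries. Its median ran from -0.015 to 0.39 over left-out libraries, and the log2 ratio of its chloroplast share from -0.10 to 0.30, both reversed without hy5 replicate 1. In hy5 against WT the sign turned for 40 of the 88 members when 1 library or another was left out, 30 of them without hy5 replicate 1, and none of the 40 was called. Those named for other reasons include rpoC2 (-0.35 to 0.11), rbcL (-0.19 to 0.18) and rpoA (-0.040 to 0.36). In bbx202122 against hy5 it turned for petN (-0.20 to 0.47) and psbM (-0.21 to 0.62), and in bbx202122 against WT for 0 members. The cause was not tested.

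Same-numbered WT and mutant libraries deviated with correlations of -0.08 to -0.02, and those of unlike number with -0.02 to 0.10. Same-numbered bbx202122 and hy5 libraries gave 0.14, 0.07 and 0.04, and those of unlike number -0.09 to 0.03. Replicate numbers thus did not pair WT with the mutants, and whether they pair the mutants with each other was not tested. A replicate block gave 78 calls for bbx202122 against WT, 8 for hy5 against WT and 79 for bbx202122 against hy5. Depth limits petN, psbM and rps16, whose SE was 0.39 or more in every comparison.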
